A study of Gallus gallus with 12 samples.

Results

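Chromosome 16 of the chicken is a small chromosome that carries the major histocompatibility complex (MHC). All rows of the deposited expression table with a locus on chromosome 16 were taken, outside the ribosomal protein genes, of which it listed 0 there. This gave 145 genes of 24353 in the table. They lay between positions 501634 and 2843493 of the GRCg6a assembly, and 42 had a symbol while 103 were listed by an Ensembl identifier alone. Their expression is described in feather follicles of white and yellow chickens at 2 ages, library by library.

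The MHC holds genes for molecules that show peptides to T cells. Class I molecules, made of a heavy chain and beta-2-microglobulin, are found on most nucleated cells and present peptides from inside the cell, whereas class II molecules are found mainly on antigen-presenting leukocytes. In the chicken the classical genes form the compact B complex, with the class I genes BF1 and BF2, the class II beta chain genes BLB1 and BLB2, and the genes that load peptides between and beside them. A second cluster, MHC-Y, lies on the same chromosome and is inherited apart from it, and both clusters differ strongly between chickens in sequence.

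The birds were F3 offspring of a cross between Huiyang Bearded chickens, which have yellow plumage, and White Leghorn chickens, which have white plumage. RNA came from follicles plucked from the nape, with epithelium and pulp together, as 3 libraries each of white follicles at 7 weeks, yellow follicles at 7 weeks, white follicles at 11 weeks and yellow follicles at 11 weeks. According to the study, all birds sequenced were CC at the recessive white locus and s/W at the Silver locus. At the Dominant white locus, the white and yellow groups of 7 weeks and the yellow group of 11 weeks held both II and Ii birds, whereas the white group of 11 weeks held only II birds. The library titles carry a number, and a library is called here by its colour, number and age. White 1 and 3 and yellow 1, 3 and 4 occur at both ages, white 2 only at 7 weeks and white 4 only at 11 weeks. The study describes the libraries as taken from separate individuals, but also describes plucking the same birds at several ages, so the sources used here do not settle whether such a label names the same bird at both ages.

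Expression was given as FPKM, fragment counts corrected for the length of the gene and for the number of fragments mapped. The table gives no read counts, so the depth behind a value is unknown and the precision of a value is given by the spread between libraries. The sum of all FPKM was between 640571 and 830214 per library, and no 2 libraries were identical (correlation across all genes between 0.927 and 0.9897 on the log2 scale). Markers of feather epithelium (7 of 7 listed with a mean FPKM of at least 0.1), of pulp mesenchyme and vessels (8 of 8) and of melanocytes (7 of 7) were present. Leukocyte markers summed to between 25.9 and 58.5 FPKM at 7 weeks and between 40.3 and 89.2 FPKM at 11 weeks, with 17 of the 20 entries at a mean of at least 0.1, while CD28 and 2 of the 3 entries named CD8A lay below it. A bulk library does not separate fewer cells of a type from less RNA per cell.

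Of the 145 genes, 36 were listed at 0 in all 12 libraries, 109 were above 0 in at least 1 library and 59 were above 0 in all 12. A mean FPKM of at least 0.1 was reached by 78 genes, of at least 1 by 49, of at least 10 by 22 and of at least 100 by 2, which were RACK1 and TUBB. In all, the genes made up between 0.237% and 0.361% of the FPKM of a library. The loci crowd upon each other. For 113 of the 145 genes the listed locus overlapped that of another, including 56 of the 78, and the BF1 locus (2565404 to 2595262) overlapped that of BLB1 in part and spanned TAPBP, BLB2, BRD2, MHCDMA, DMB1 and DMB2. Reads of overlapping loci and of near-identical copies can be assigned to either, and 16 of the values lay above 0 but under 1e-06, less than any whole read could give. The program that wrote the FPKM is not given in the sources used here. An FPKM of exactly 0 may thus stand for an estimate that failed, so the text says only that a gene was listed at 0.

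Among the class I genes, BF2 (2606527 to 2609057) was the highest. BF2 codes for the major class I heavy chain of most chicken MHC types. Its FPKM at 7 weeks was 280 in white 1, 54.8 in white 2 and 55.7 in white 3, and 40.1, 41.8 and 81.3 in yellow 1, 3 and 4. At 11 weeks it was 221 in white 1, 34.6 in white 3 and 71.5 in white 4, and 33.6, 32.2 and 48.4 in yellow 1, 3 and 4. White 1 thus stood above all other libraries at both ages, at 5.07 times the mean of the other 2 white libraries of 7 weeks and 4.16 times that of 11 weeks. The colours overlapped at both ages, and the mean at 7 weeks was 130.2 ± 129.7 (SD, n = 3) in white against 54.4 ± 23.3 in yellow follicles. The log2 difference of yellow from white, averaged over both ages, was −1.004 with a standard error of 0.50 (adjusted p = 0.314, limma with Benjamini-Hochberg adjustment over all genes tested).

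BF1, the class I gene that is usually expressed at a lower level, had an FPKM of 64.7 in white 1 at 7 weeks against 20.05 in white 2 and 20.04 in white 3. It was 51.4 in white 1 at 11 weeks against 12.9 in white 3 and 11.2 in white 4. In yellow libraries it was 28.0, 30.2 and 54.5 at 7 weeks and 27.198, 18.02 and 29.1 at 11 weeks in yellow 1, 3 and 4. White 1 was again the highest library of its group, and the colours overlapped (averaged log2 difference 0.29, standard error 0.42, adjusted p = 0.723, limma).

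The class II beta chain genes differed widely between libraries. BLB2 (2572331 to 2573868) had an FPKM of 115 in white 1, 15.1 in white 2 and 16.5 in white 3 at 7 weeks, and of 79.3 in white 1, 4.002 in white 3 and 6.81 in white 4 at 11 weeks. In yellow 1, 3 and 4 it was 19.4, 16.8 and 26.1 at 7 weeks and 9.11, 3.69 and 12.03 at 11 weeks. White 1 was 7.29 times the mean of the other 2 white libraries at 7 weeks and 14.7 times at 11 weeks, and the other white libraries of 7 weeks lay just below the yellow ones. BLB1 (2565093 to 2566926) had another order. Its FPKM was 53.2, 26.5 and 20.8 in white 1, 2 and 3 and 27.9, 25.4 and 70.5 in yellow 1, 3 and 4 at 7 weeks. At 11 weeks it was 36.0, 11.7 and 16.9 in white 1, 3 and 4 and 21.0, 12.5 and 41.0 in yellow 1, 3 and 4. Here yellow 4 was the highest library at both ages, followed by white 1. Neither gene differed by colour beyond the spread between libraries (averaged log2 difference −0.69 with a standard error of 0.73 for BLB2, adjusted p = 0.621, and 0.23 with a standard error of 0.40 for BLB1, adjusted p = 0.776, limma).

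Genes of peptide loading showed smaller differences in the same libraries. TAPBP, which codes for tapasin and brings class I molecules to the peptide transporter, stood at an FPKM of 94.6, 61.0 and 60.8 in white 1, 2 and 3 and of 56.9, 54.9 and 120 in yellow 1, 3 and 4 at 7 weeks. At 11 weeks it was 68.2, 34.3 and 41.4 in white 1, 3 and 4 and 38.0, 32.1 and 57.1 in yellow 1, 3 and 4. White 1 was the highest white and yellow 4 the highest yellow library at both ages. DMB2, a chain of the DM molecule that helps peptides onto class II, was 41.8 in white 1 and 39.0 in yellow 4 at 7 weeks, against 21.0 to 23.1 in the other 4 libraries, and 21.2 and 22.8 at 11 weeks, against 11.9 to 17.5. MHCDMA, the other chain of DM, was 30.0 in white 1 and 23.1 in yellow 4 at 7 weeks, against 16.1 to 19.4 in the rest. DMB1 was low throughout, between 0.0391 and 0.763. The peptide transporter genes TAP1 and TAP2 were not analysed by symbol here. A pair of identifiers between DMB2 and BF2, ENSGALG00000029381 and ENSGALG00000035075, ranged from 4.63 to 29.9 and from 5.75 to 27.0 and were highest in yellow 4 and white 1 at 7 weeks. RefSeq places BF1, TAP1 and TAP2 between DMB2 and BF2 in the GRCg7b assembly, but the identifiers could not be paired with these names.

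**Figure D1:**
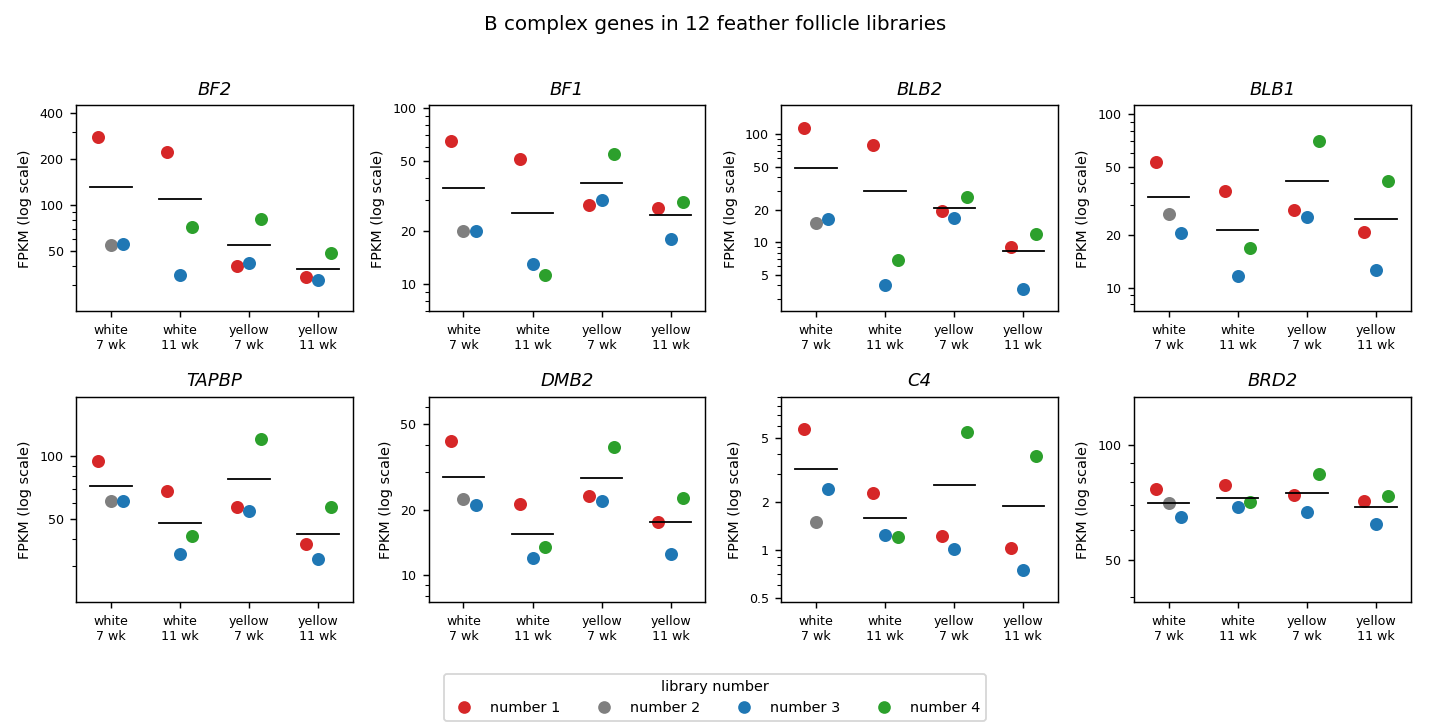
FPKM (log scale) of 8 B complex genes in each of the 12 libraries, by colour and age, with points coloured by the number in the library title and a bar at the mean of the 3 libraries. White 1 lies far above the other white libraries for BF2 (280 and 221) and BLB2 (115 and 79.3), yellow 4 is the highest yellow library for every gene shown at both ages, and BRD2 stays between 62.1 and 83.9.

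Over the stretch from BG1 to CD1C, which holds 17 genes that reached a mean FPKM of 0.1, white 1 was the highest white library at both ages for 13 genes and yellow 4 the highest yellow library at both ages for 13 genes. Yellow 3 was the lowest yellow library at both ages for 9 genes, and white 3 the lowest white library for 7. This was not the order of every gene there. CYP21, CENPA and CD1C were outside both sets of 13 genes, CD1B outside that of white 1 and DMB1 outside that of yellow 4. Of the 54 genes before BG1, white 1 was the highest white library at both ages for 10 and the lowest for 10. Yellow 4 was the highest yellow library there for 13 and the lowest for 6. Several loci from BG1 to CD1C overlap, so these counts are not of separate observations, and the share over all genes of the table is not given here. BRD2, a chromatin reader coded amid the class II genes, was highest in white 1 and yellow 4 but differed little. Its FPKM lay between 62.1 and 83.9 in all 12 libraries. C4, the fourth complement component (2609634 to 2624278), was 5.70 in white 1 against 1.49 and 2.40 in white 2 and 3 at 7 weeks, and 5.46 in yellow 4 against 1.21 and 1.00 in yellow 1 and 3. At 11 weeks C4 was 2.27 in white 1, 1.24 in white 3 and 1.21 in white 4, against 3.89 in yellow 4, 1.03 in yellow 1 and 0.750 in yellow 3. CENPA, the centromeric histone, ranged from 10.03 to 26.0 with the colours overlapping. The CD1 genes, whose products present lipids, were low, CD1B between 0.636 and 2.38 and CD1C between 0.312 and 1.18. BG1 itself, a member of the B-G family of butyrophilin-like receptors, reached only 0.0821.

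Genes elsewhere in the genome that act with the MHC were set beside these values. B2M, the gene for beta-2-microglobulin and itself outside chromosome 16, had an FPKM of 300.3 in white 1 at 7 weeks against 187 and 199 in white 2 and 3, and of 415 in yellow 4 against 240.2 and 192 in yellow 1 and 3. At 11 weeks B2M was 288 in white 1 against 148 and 182 in white 3 and 4, and 316 in yellow 4 against 206 and 171 in yellow 1 and 3. It was thus highest in the same libraries as TAPBP and DMB2. The sum of the leukocyte markers was also highest in white 1 among white libraries (45.8 FPKM against 39.9 and 42.6 at 7 weeks, 80.2 against 60.0 and 63.3 at 11 weeks) and in yellow 4 among yellow libraries (58.5 against 25.9 and 34.9 at 7 weeks, 89.2 against 40.3 and 60.9 at 11 weeks). Not every leukocyte marker had this order, and LY86 was lower in white 1 than in the other white libraries of 7 weeks. The sum of 25 interferon-linked genes was 222 in white 1 against 112 and 122 at 7 weeks and 381 against 146 and 208 at 11 weeks. In yellow 4 it was 507 against 112 and 145 at 7 weeks but 184 against 173 and 187 at 11 weeks. The sum of markers of pulp mesenchyme and vessels was also highest in yellow 4 among yellow libraries, at 1950.3 against 1334 and 1150 at 7 weeks and 2768 against 1885 and 1124 at 11 weeks. Among white libraries this sum was 1741 in white 1 against 1494 and 1471 at 7 weeks, but 1682 against 1934 and 2124 at 11 weeks. COL1A1 made up much of it, at 1226 in yellow 4 and 1288 in white 1 at 7 weeks. Not every marker had this order. PDGFRA was 5.23 in yellow 4 against 13.3 in yellow 3 at 11 weeks. At 7 weeks COL1A1, COL3A1, VWF and KDR were highest in white 1 among white libraries, while COL1A2 and PDGFRA were lowest there. The part of these cell types and of interferon-linked expression in the differences between libraries was not tested. Of 18 genes of antigen presentation outside chromosome 16, 0 were called for colour averaged over ages, with a median log2 difference of 0.11 beside 0.07 for all genes tested. Of the 18, 2 had an unadjusted p under 0.05, beside 2517 of the 14553 genes tested (limma).

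Beyond single genes, libraries with the same label at both ages had like patterns over chromosome 16. For each gene, the deviation of a library from the mean of its group of 3 was taken on the log2(FPKM + 0.1) scale, and libraries of 7 weeks were set against libraries of 11 weeks. Over the 78 genes that reached a mean FPKM of 0.1, Pearson's r was 0.73 for white 1, 0.46 for white 3, 0.43 for yellow 1, 0.76 for yellow 3 and 0.77 for yellow 4. Each of the 10 libraries with a label at both ages correlated best with its own label among the 6 libraries of the other age. Over 14475 genes outside chromosome 16 the same 5 pairs gave values between 0.084 and 0.210, and 6 of the 10 libraries correlated best with their own label. Pairs of the same colour with another number had a median r of −0.39 over chromosome 16, with a range from −0.68 to 0.41, and pairs of other colours had a median of 0.02. Deviations within a group of 3 sum to 0, which pulls pairs with another number below 0. These correlations are across genes that share libraries and often overlap or lie side by side, and genes are not independent replicates, so they are given as a description only. The agreement was not limited to the stretch from BG1 to CD1C, whose 17 genes gave values between 0.30 and 0.88 for the same 5 pairs. The 54 genes before BG1, with BZFP1 and BLEC3 of the B region among them, gave values between 0.39 and 0.79. This split does not separate the B complex from the rest of the chromosome.

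**Figure D2:**
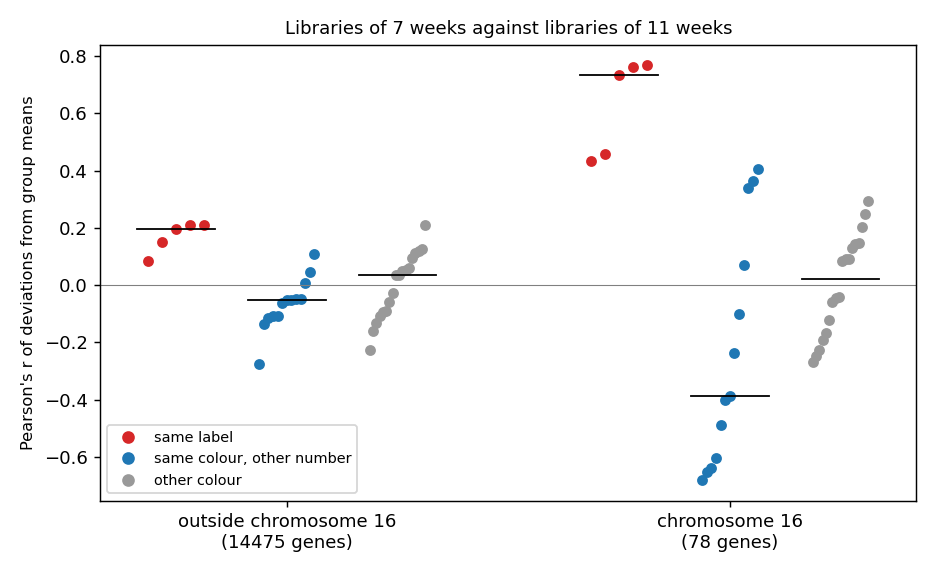
Pearson's r between the deviations of each library of 7 weeks and each library of 11 weeks from their group means, over genes outside chromosome 16 (left) and over chromosome 16 genes (right), where a point is a pair of libraries and a bar the median. The 5 pairs with the same label lie between 0.43 and 0.77 over chromosome 16 and between 0.084 and 0.210 elsewhere.

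Some genes were on in some libraries and listed at 0 in others. A gene was counted as on or off when its FPKM was at least 1 in at least 1 library and below 0.01 in at least 1 other. Of the 65 chromosome 16 genes that reached an FPKM of 1, 11 were on or off, which is 16.9%, beside 439 of 12639 genes (3.47%) in the whole table. None of the 11 had a symbol. Of 49 pairs of same-labelled libraries in which both values were either below 0.01 or at least 0.1, 45 were in the same state at both ages (91.8%). Pairs of the same colour with another number were in the same state in 87 of 126 cases (69%). Overlapping genes are counted apart in these shares, and the shares over the on or off genes of the whole table are not given here.

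ENSGALG00000054241 (1109835 to 1111994) was the only one of the 11 that was on in every library of one colour and listed at 0 in every library of the other. White libraries, 6 of 6, had a value of 0. In yellow 1, 3 and 4 its FPKM was 0.291, 2.66 and 0.719 at 7 weeks and 0.308, 2.68 and 1.04 at 11 weeks. The order of the yellow libraries was thus the same at both ages, with yellow 3 the highest. ENSGALG00000032765 (1184101 to 1185570) had a value above 0 in only 1 white library, white 4 of 11 weeks, at 1.96. It was on in yellow 1 (0.396 and 0.805) and yellow 4 (0.495 and 0.641) at both ages and listed at 0 in yellow 3 at both.

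Yellow 3 was listed at 0 or had low values at several further genes. ENSGALG00000049208 (1962071 to 2057699) was listed at 0 in yellow 3 at both ages and ranged from 0.303 to 1.78 in the other 10 libraries. ENSGALG00000055025 (2359782 to 2467480) was listed at 0 in yellow 3 at both ages and ranged from 0.217 to 3.87 elsewhere. ENSGALG00000049444 (2069171 to 2071163), which was not on or off by the rule and was singled out after its values were seen, was 0.0449 and 0.0408 in yellow 3 and 0.0815 in white 4, against 1.66 to 4.94 in the other 9 libraries. The 3 loci do not overlap each other, but ENSGALG00000049444 lies close to the end of ENSGALG00000049208, and the locus of ENSGALG00000050091 overlaps both. ENSGALG00000049208 and ENSGALG00000055025 overlap 14 and 15 other loci.

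ENSGALG00000050091 (2025750 to 2139631) was on in yellow 4 alone, with an FPKM of 4.54 at 7 weeks and 2.82 at 11 weeks, and did not exceed 0.0876 in the other 10 libraries. ENSGALG00000013101 (2276257 to 2395893) was likewise split by colour, at 0.295 or more in white libraries and at most 0.0849 in yellow ones, and is described with the colour comparison. The part of sequence differences between a bird's MHC and the reference assembly in these values was not tested.

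The pair ENSGALG00000050132 (1774846 to 1901383) and ENSGALG00000044472 (1873781 to 1884480), which overlap, went together. Both were on in white 1 at both ages (FPKM 0.955 and 0.965 for the first, 1.96 and 2.67 for the second) and in yellow 3 at both ages (1.81 and 2.19, 0.823 and 1.08). Both were listed at 0 in white 2, 3 and 4 and in yellow 4. In yellow 1 they were on at 7 weeks, at 0.756 and 3.10, and listed at 0 at 11 weeks. Yellow 1 therefore changed state between ages at both genes, unlike white 1, white 3, yellow 3 and yellow 4. The remaining 3 genes were each below 0.01 in 1 library: ENSGALG00000042708 in yellow 4 at 7 weeks, ENSGALG00000054226 in white 4 at 11 weeks and ENSGALG00000044569 in yellow 3 at 11 weeks, with maxima of 1.09, 1.42 and 1.43.

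**Figure D3:**
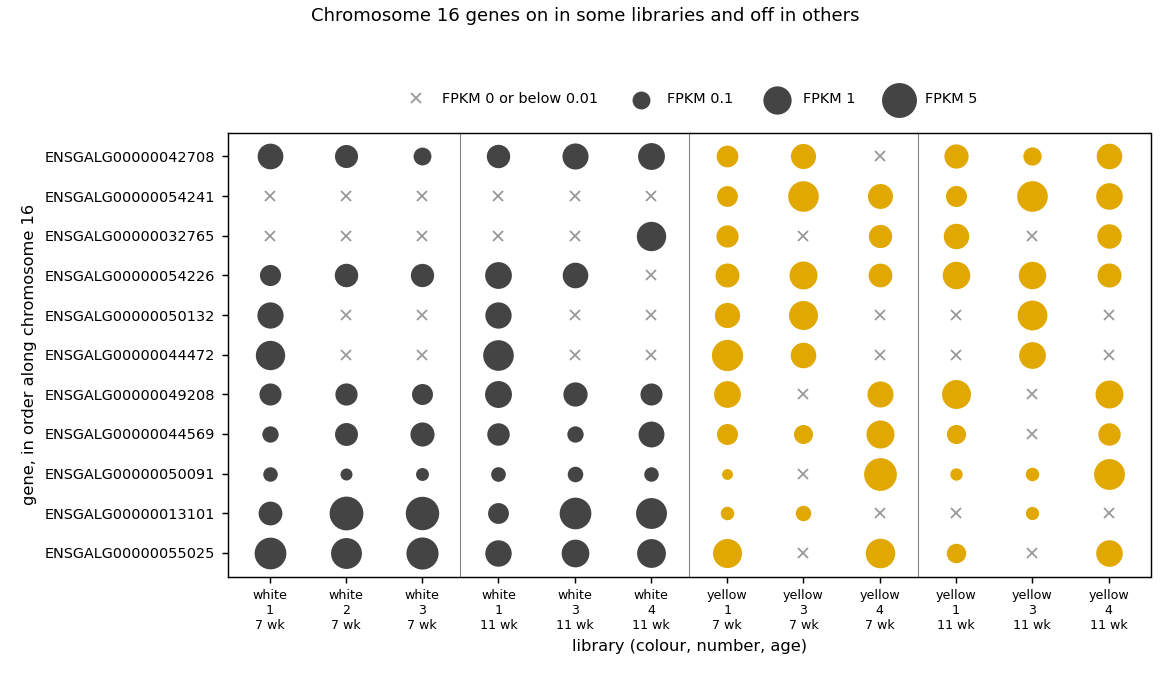
The 11 on or off genes of chromosome 16 in their order along the chromosome (rows) and the 12 libraries by colour, number and age (columns), with a cross for an FPKM of 0 or below 0.01 and otherwise a dot whose area grows with log2(FPKM + 0.1). ENSGALG00000054241 is crossed in all 6 white libraries, and most columns with the same colour and number repeat their crosses at the other age.

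Genes without a symbol outside the on or off set also carried the label. ENSGALG00000037980 (711838 to 736706) was 12.8 in white 1 at 7 weeks and 8.37 at 11 weeks, and between 0.933 and 3.83 in the other 10 libraries. ENSGALG00000040101 (2272153 to 2410307) was 2.94 and 1.47 in white 1 and at most 0.304 elsewhere. Where it was high, ENSGALG00000013101, whose locus it overlaps, was low among white libraries, at 0.558 and 0.295 in white 1 against 2.85 to 5.93 in the others. Both genes were singled out after their values were seen.

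For the comparison of colours, limma was fitted on log2(FPKM + 0.1) across all genes whose mean FPKM reached 0.1, and a gene was called when its adjusted p did not exceed 0.05 and its log2 fold change was 1 or more in either direction. At 7 weeks 0 of 75 chromosome 16 genes tested were called, beside 0.0288% of the 13895 genes tested. An unadjusted p under 0.05 was found for 13 of the 75, beside 2091 of the 13895 (limma). At 11 weeks 0 of 81 were called, beside 0% of the 14806 genes tested, and 10 had an unadjusted p under 0.05, beside 1070 of the 14806. The difference of the colour effects between ages gave 0 of 78, beside 0% of 14553. Here 4 had an unadjusted p under 0.05, beside 973 of the 14553. Averaged over both ages, 3 of 78 were called, 1 higher and 2 lower in yellow follicles, beside 0.206% of the 14553 genes tested. Not all of the 3 would have passed the filter on the values of each colour alone. The median log2 difference of yellow from white was −0.06 over the 78 genes and 0.07 over all genes tested. Within an age the fits called 0 of 7 melanocyte markers at 7 weeks and 0 of 7 at 11 weeks. At each age 5 had an unadjusted p under 0.05 (limma). The study reported TYRP1, DCT, PMEL and MLANA as lower in yellow follicles at both ages by quantitative PCR. A count of 0 within an age thus does not show that the colours were alike.

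ENSGALG00000048627 (501634 to 507486) was lower in yellow follicles. Its FPKM was 9.71, 10.6 and 10.6 in white 1, 2 and 3 and 2.71, 4.06 and 0.983 in yellow 1, 3 and 4 at 7 weeks, and 8.88, 8.003 and 6.02 in white 1, 3 and 4 and 2.78, 2.18 and 1.35 in yellow 1, 3 and 4 at 11 weeks. The colours did not overlap at either age, and yellow 4 was the lowest library at both. The averaged log2 fold change was −2.00 with a standard error of 0.29 (adjusted p = 0.0227, limma).

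ENSGALG00000013101 was lower in yellow follicles too. It was 0.558, 5.93 and 5.45 in white 1, 2 and 3 at 7 weeks and 0.295, 3.48 and 2.85 in white 1, 3 and 4 at 11 weeks. In yellow libraries it was 0.0485 and 0.0849 in yellow 1 and 3 at 7 weeks, 0.0444 in yellow 3 at 11 weeks, and listed at 0 or below 0.01 in the other 3. The averaged log2 fold change was −4.08 with a standard error of 0.65 (adjusted p = 0.0295, limma). All yellow values lay under the pseudocount of 0.1, so the size of the change depends on the pseudocount. Over 21 alternative fits it ran from −6.238 to −1.725, with adjusted p up to 0.320 (limma). The locus is 119637 bases long and overlaps 10 others. Leaving out white 1 at 7 weeks brought it past the threshold at that age as well (log2 fold change −5.37, adjusted p = 0.0177), the one call on chromosome 16 that the omission of a library gave within an age.

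ENSGALG00000054241, listed at 0 in white libraries, had an averaged log2 difference of 3.35 with a standard error of 0.51 (adjusted p = 0.0235, limma), a value set by the pseudocount. It passed the filter of a mean FPKM of 0.1 only through its yellow libraries, and ENSGALG00000013101 only through its white ones. The p-values of both are thus not independent of the filter and are given as a description only. Without the filter, 3 of 109 chromosome 16 genes were called, 1 higher and 2 lower in yellow follicles, beside 26 of all 18947 genes tested. The 3 calls made with the filter rest on all libraries. Of 12 fits that each left out 1 library, ENSGALG00000048627 kept its call in 5, ENSGALG00000013101 in 3 and ENSGALG00000054241 in 4, with adjusted p up to 0.0747, 0.0849 and 0.0805 in the others. There was no call without white 3 at 11 weeks, yellow 4 at 11 weeks, white 2 at 7 weeks, white 3 at 7 weeks or yellow 1 at 7 weeks, and 1 call without white 1 at either age or yellow 4 at 7 weeks. There were 5 calls without yellow 3 at 7 weeks and 2 or 3 without each of the others. These counts include genes beyond the 3, namely ENSGALG00000048063 and ENSGALG00000048880 without yellow 3 at 7 weeks. Without yellow 3 at 11 weeks they include ENSGALG00000048880. With a pseudocount of 1, ENSGALG00000048627 alone was called. Same-labelled libraries were treated as independent here, and with the label as a random block the same number of genes, 3, was called. That block used 1 correlation for all genes, 0.146. Over the chromosome 16 genes, the deviations of same-labelled libraries correlated between 0.43 and 0.77. The random block therefore does not settle how dependence between these libraries bears on the 3 calls. With the number within age as a replicate block, 0 were called, and the smallest adjusted p of a chromosome 16 gene was 0.0942 (limma). In that fit 14 of them had an unadjusted p under 0.05, beside 1520 of all 14553 genes tested. At 7 weeks this block leaves white 2 and yellow 4 without a partner, so the colour difference there rests on numbers 1 and 3. The sum of melanocyte markers differed with colour as well. It was 696 to 1678 FPKM in white against 196 to 369 in yellow libraries at 7 weeks, and 319 to 621 against 128 to 188 at 11 weeks. PMEL, MLANA and TYRP1 made up most of this sum. In the average 6 of the 7 markers were lower in yellow follicles, 3 of them called, and 1 was higher. The higher one was KIT, which at 11 weeks stood above all white libraries in every yellow library. TYR and SOX10 overlapped between colours at both ages. The part of melanocyte markers in the difference of the 3 genes was not tested.

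A further gene, ENSGALG00000048880 (1974067 to 1983830), did not overlap between colours at either age. It was 0.429 to 0.637 in white and 0.127 to 0.315 in yellow libraries at 7 weeks, and 0.357 to 0.644 against 0 to 0.179 at 11 weeks (averaged log2 difference −1.45, standard error 0.28, adjusted p = 0.0606, limma). With median-of-ratios scaling (adjusted p = 0.0435) and with quantile normalization (adjusted p = 0.029) it was called. In all, yellow libraries lay below white ones at both ages for 3 of 78 genes, where 1.18% of the 14553 genes tested did so, and above them for 1 of 78, where 1.97% did so. At 7 weeks alone yellow libraries were below white ones without overlap for 11 of the 78 genes and above for 4, where 7.77% and 11.9% of all genes tested were. At 11 weeks the numbers were 5 and 4, where 5.7% and 7.96% of all genes tested were. ENSGALG00000043671 (1391735 to 1651259) was at most 0.0795 in white libraries and 0.850, 0.339 and 0.0385 in yellow 1, 3 and 4 at 7 weeks and 0.752, 0.508 and 0.0327 at 11 weeks. Yellow 4 thus resembled the white libraries at this gene, which was singled out after its values were seen (averaged log2 difference 1.74, standard error 0.53, adjusted p = 0.167, limma).

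**Figure D4:**
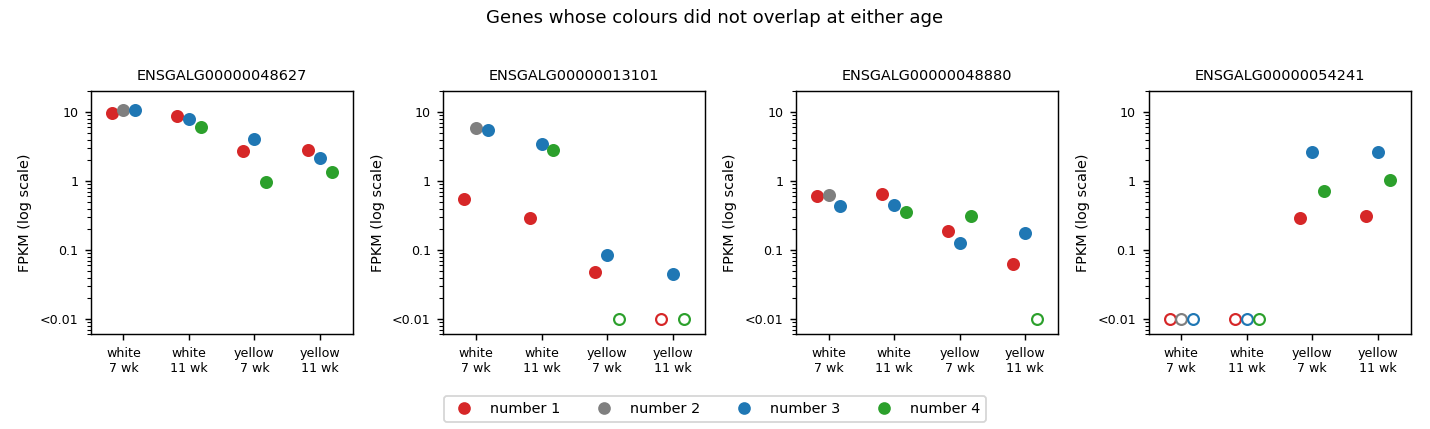
FPKM (log scale, values under 0.01 or listed at 0 drawn as open circles at the bottom) of the 4 genes whose white and yellow libraries did not overlap at 7 or at 11 weeks, with points coloured by the number in the library title. The first 3 are lower and ENSGALG00000054241 is higher in yellow libraries, and white 1 lies below the other white libraries for ENSGALG00000013101.

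Between ages, 8 of 78 genes were called, 6 higher and 2 lower at 11 weeks, beside 28% of the 14553 genes tested. The summed FPKM of a library was 700237 to 830214 at 7 weeks and 640571 to 711831 at 11 weeks. The median log2 change was −0.14 over the 78 genes and 0.44 over all genes tested, so the median gene tested stood higher at 11 weeks. The size of this shift depends on the scaling. With median-of-ratios scaling, which put the median of all genes at 0.03, the median of the chromosome 16 genes was −0.54 and 26 were called, 3 higher and 23 lower. With quantile normalization 20 were called, 2 higher and 18 lower. With the bird label as a block, 9 were called, 5 higher and 4 lower, among them BLB2 and ENSGALG00000055025 (log2 difference −1.39, adjusted p = 0.0223, limma), which were not called without it, while TRIM27.2 lost its call. White 2 and white 4 have no partner in this block, so its age differences rest on the 5 labels present at both ages.

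The clearest rise was that of ENSGALG00000054667 (613211 to 620890). It was 0.717, 0.462 and 0.327 in white 1, 2 and 3 and 0.755, 0.540 and 0.717 in yellow 1, 3 and 4 at 7 weeks, and 5.72, 6.31 and 6.78 in white 1, 3 and 4 and 5.09, 4.50 and 5.17 in yellow 1, 3 and 4 at 11 weeks. The ages did not overlap in either colour (log2 fold change 3.08, standard error 0.17, adjusted p = 4.2e-07, limma), and it was called under both other scalings. Its near neighbour ENSGALG00000047665 (626757 to 628182) was 0.422 to 1.204 at 7 weeks and 1.46 to 3.15 at 11 weeks (log2 fold change 1.67, standard error 0.23, adjusted p = 6.3e-05). PPP1R10, which codes for a nuclear partner of protein phosphatase 1, was 8.58 to 13.1 at 7 weeks and 25.7 to 29.6 at 11 weeks (log2 fold change 1.41, standard error 0.11, adjusted p = 2.1e-06). ENSGALG00000048814 (2798255 to 2810821) was 1.98 to 4.49 at 7 weeks and 4.58 to 11.0 at 11 weeks (log2 fold change 1.47, adjusted p = 5.4e-05). For these 4 genes, every library of 11 weeks lay above every library of 7 weeks.

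BZFP1, a zinc finger gene of the B locus, was lower at 11 weeks, at 3.32 to 4.06 against 6.84 to 10.1 (log2 fold change −1.15, standard error 0.10, adjusted p = 2.6e-06, limma), and was called lower under both other scalings. The rises of PPP1R10 with median-of-ratios scaling (0.96) and of ENSGALG00000047665 (0.73) and ENSGALG00000048814 (0.80) with quantile normalization fell short of the fold required. The other 3 calls also changed when a scaling was replaced or a library left out. TRIM27.2, of the TRIM family of ubiquitin ligases, ranged from 0.122 to 0.802 at 7 weeks and from 0.394 to 2.51 at 11 weeks (log2 fold change 1.23, adjusted p = 0.0283). It lost its call under both other scalings and in 6 of 12 fits that left out 1 library, namely white 2 or yellow 3 at 7 weeks and white 3, white 4, yellow 3 or yellow 4 at 11 weeks. ENSGALG00000029381 was 9.85 to 29.9 at 7 weeks and 4.63 to 11.2 at 11 weeks (log2 fold change −1.04, adjusted p = 0.0148), and was called under both other scalings, but its change fell under 1 in 5 of the 12 fits, without white 1 or yellow 4 at 7 weeks and without white 3, white 4 or yellow 3 at 11 weeks. ZNF226L, a zinc finger gene, was 0.0842 to 0.615 at 7 weeks and 0.471 to 1.37 at 11 weeks (log2 fold change 1.31, adjusted p = 0.00483) and lost its call under both other scalings.

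**Figure D5:**
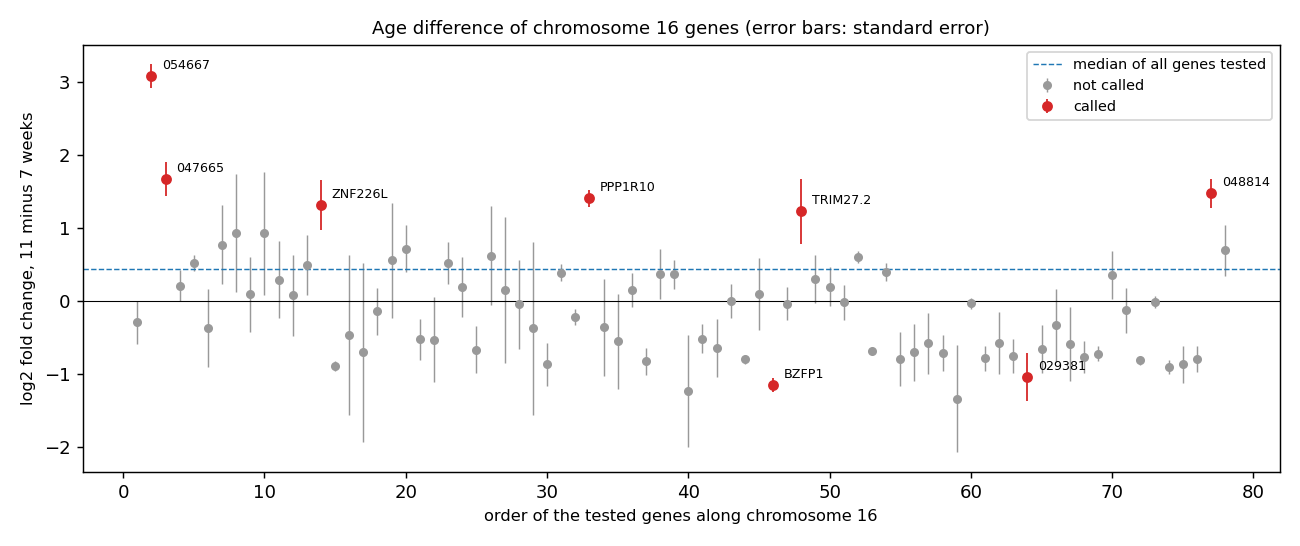
Log2 fold change of 11 against 7 weeks, averaged over colours, with its standard error, for the 78 tested genes in their order along chromosome 16. The 8 called genes are red and named by symbol or by the last 6 digits of the identifier, with ENSGALG00000054667 the highest at 3.08, and the dashed line is the median of all genes tested at 0.44.

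Several abundant genes were lower at 11 weeks without overlap but by less than the fold required. RACK1, a scaffold protein of the ribosome and the most abundant gene of the chromosome, had a mean FPKM at 7 weeks of 993 ± 45.2 (SD, n = 3) in white and 945 ± 54.5 in yellow follicles. The means were 613 ± 7.33 and 594 ± 27.19 at the older age. Its log2 difference was −0.68 with a standard error of 0.05 (adjusted p = 1.5e-06, limma), −1.13 with median-of-ratios scaling and −0.24 with quantile normalization. FLOT1, a membrane scaffold protein, was 45.5 to 58.0 at 7 weeks and 26.9 to 31.1 at 11 weeks, with a log2 difference of −0.81. POLR2I, a subunit of RNA polymerase II, was 35.6 to 46.2 and then 19.3 to 24.5, and PFDN6, a prefoldin subunit, 13.9 to 20.4 and then 7.85 to 10.2. With median-of-ratios scaling all 4 were called lower (FLOT1 −1.26, POLR2I −1.34 and PFDN6 −1.35), and PFDN6 also with quantile normalization (−1.24). TUBB, a beta-tubulin, ranged from 424 to 629 with overlapping ages (log2 difference −0.02), as did BRD2 (−0.03), and both were higher with quantile normalization (0.38 and 0.19) and lower with median-of-ratios scaling (−0.46 and −0.48).

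The class I and class II genes had lower means at 11 weeks in both colours. The mean of BLB2 was 48.9 ± 57.4 (SD, n = 3) in white and 20.8 ± 4.80 in yellow follicles at the younger age and 30.0 ± 42.7 and 8.27 ± 4.23 at the older, but its log2 difference of −1.34 was not called (adjusted p = 0.125, limma). For BF2 the difference was −0.34 (adjusted p = 0.568), for BF1 −0.58 (adjusted p = 0.235) and for BLB1 −0.71 (adjusted p = 0.134). TAPBP (−0.71, adjusted p = 0.0231), DMB2 (−0.75, adjusted p = 0.0142) and MHCDMA (−0.79, adjusted p = 0.00187) passed the adjusted p but not the fold required. These calls turn on the scaling. With median-of-ratios scaling BLB2 (−1.78, adjusted p = 0.0493), BLB1 (−1.15, adjusted p = 0.0179), BF1 (−1.03, adjusted p = 0.0433), TAPBP (−1.16), DMB2 (−1.196) and MHCDMA (−1.23) were called lower at 11 weeks, while BF2 was not (−0.78, adjusted p = 0.180), and with quantile normalization MHCDMA alone of these 7 was called (−1.06). With the bird label as a block, which rests on the labels present at both ages, BLB2 was called lower as well (−1.36, adjusted p = 0.00545, limma). Over the same interval 6 of 17 leukocyte markers tested were called higher and none lower, with a median log2 change of 0.76, where 28% of all genes tested were called and the median of all was 0.44. The part of leukocyte markers in the values of the class II genes was not tested.

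Of the remaining named genes of the B region, TRIM7.2 ranged from 10.1 to 26.6, TRIM39.1 from 1.35 to 6.86, TRIM39.2 from 0.180 to 1.19 and TRIM27.1 from 0.256 to 0.672, with overlapping colours at 7 weeks in each. BLEC3, a C-type lectin-like gene, was between 0.648 and 4.42, and the zinc finger gene ZNF692 between 2.13 and 7.21. TRIM39.1 did not overlap between colours at 11 weeks, at 1.35 to 2.45 in white and 2.99 to 6.86 in yellow libraries (log2 difference 1.19, standard error 0.37, adjusted p = 0.610, limma). None of these 6 genes was called for colour or for age in the fits as described, but BLEC3 was called lower at 11 weeks with median-of-ratios scaling (log2 difference −1.07, adjusted p = 0.0327) and with quantile normalization (−1.48, adjusted p = 0.00788). Of the MHC-Y region, MHCIY was the one gene above 0.1 with a symbol that names the cluster, at 0.434 to 1.76 with the highest value of each white group in white 1 (1.74 and 1.76), and Y-LEC1 was listed at 0 in all 12 libraries.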

How the data were processed

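The authors aligned filtered 150-base paired reads to GRCg6a with TopHat2 on a Bowtie2 (version 2.2.3) index and the Ensembl annotation and counted genes with HTSeq (version 0.6.0). The deposited table holds FPKM for 24353 genes in 12 libraries, and some of its values are too small to come from whole read counts, so how the authors derived FPKM is uncertain. A strand-specific kit is not stated. Groups came from the library titles. Log2(FPKM + 0.1) was fitted with limma (version 3.58.1, R version 4.3.3), eBayes with trend, over all genes whose mean FPKM reached 0.1, with Benjamini-Hochberg adjustment. The study's DEGseq test needs read counts and was not run, and its thresholds were kept. Named genes were those with a symbol of a list of MHC roles, called genes, genes whose colours did not overlap at both ages, and on or off genes. Members and lists were chosen with earlier results of these data known. The fits were tested on simulated data drawn independently for each gene and library. Such data do not cover dependence between same-labelled libraries. Alternatives changed the pseudocount, filter, scaling, variance trend, fold threshold, library and replicate block. The study names separate individuals as the source of the libraries, but libraries of the same label at both ages may be 1 bird, and p-values then measure the spread between libraries. Gene symbols were as deposited, since 0 of the 145 identifiers matched RefSeq (GRCg7b) entries by Ensembl identifier.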

Additional observations from a re-analysis of the deposited data

How the results depend on the processing

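With 3 libraries a group, a value rests on few birds, and overlapping loci may share reads. For colour at 7 weeks the number of chromosome 16 genes called was 0 and lay between 0 and 1 when 1 library was left out. For colour averaged over ages it was 3 and lay between 0 and 5 when 1 library was left out. With a pseudocount of 1 it was 1. Same-numbered white and yellow libraries of an age correlated between −0.036 and 0.235 across 11242 genes, not above 0.1 in every pair, so the numbers were not taken as pairs. With the replicate block (number within age), in which white 2 and yellow 4 of 7 weeks have no partner, it was 0, and 0 at each age. Same-labelled libraries of both ages correlated between 0.096 and 0.267 across these genes, with 5 of 10 libraries best with their own label. They were therefore not taken as pairs for the fits. Over the chromosome 16 genes the same pairs correlated between 0.43 and 0.77, and 10 of 10 libraries were best with their own label. If a label names 1 bird, the colour fit averaged over ages counted its libraries as separate birds. For age the number was 8, between 6 and 10 with 1 library left out, 9 with the replicate block of the bird label, 4 with a pseudocount of 1, 27 without a fold threshold, 26 with median-of-ratios scaling and 20 with quantile normalization. The on or off count was 11, between 8 and 11 with 1 library left out, 15 for an upper FPKM of 0.5 and 6 for an upper FPKM of 2. For colour at 11 weeks and for the difference between ages the number was 0 in all settings run. No log2 fold change of the 11 calls changed sign. The causes of these shifts were not tested.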
